A study of Mus musculus with 4 samples.

Results

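Heat shock proteins and chaperonins form a group of 92 genes among the 19938 genes that could be read from the arrays of hypothalamic RNA. They were taken by gene symbol: HSP70, HSP110, HSP90, HSP60 and HSP10, the small heat shock proteins, the J-domain proteins of the DNAJA, DNAJB and DNAJC classes, the CCT ring, the BAG proteins, 6 further co-chaperones and a heat shock factor. Only probe sets annotated with exactly 1 symbol were read, and where a gene had several, the brightest of them by its mean on the 4 arrays was used. The mean level was the only measured value in this choice, but the group was picked with earlier results of these arrays known. Of the 92 genes, 75 had a mean at or above 6.59 log2, the 40th percentile of all genes, and entered the tests with 11963 genes in all. The nearest to that limit were Dnajb13 inside it, at a mean of 6.61 log2, and Hspa12b outside it, at 6.55. Dnajc25, at 6.55 in the control, passed only through the tumour-bearing arrays, and Dnajb13 only through the control, at 7.01, since its tumour-bearing arrays lay at 6.39 to 6.57. The filter thus favoured a difference in both. The counts past the filter that follow include both genes unless stated, and their part in those counts is no support for a difference. Hsf1, Hsp90ab1 and a probe set of Hspa1b alone were not analysed here.

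The study asked how the hypothalamus differs in mice that carry increasing loads of a cachexia-inducing tumour. The animals were male CDF1 mice, a cross of BALB/c and DBA/2, killed at 10 to 11 weeks of age on day 20 after the injection. Tumour-bearing mice had received C26 cells, a mouse colon adenocarcinoma line, under the skin of the flank: 500000 cells (0.5M), 1000000 cells (1M) or 2000000 cells (2M) in 0.2 ml of buffered saline. Control mice received the saline alone. RNA of 4 control mice, 4 mice of 0.5M and 3 mice of 1M was pooled within each group, whereas the 2M array held RNA of 1 mouse. Every group was therefore 1 array, and a difference between any pair of arrays has no replicate check.

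Chaperones bind unfolded or partly folded proteins and keep them from aggregating. HSP70 takes up clients delivered by J-domain proteins and releases them with the help of exchange factors such as HSP110 and the BAG proteins, HSP90 matures signalling proteins such as steroid receptors, and HSP60 with HSP10, like the CCT ring, encloses a client in a folding chamber. When cytosolic proteins misfold, heat shock factors form trimers that bind heat shock elements, which are inverted repeats of GAA with 2 bases between the units, and transcription of the inducible chaperones rises. Neurons hold large amounts of the constitutive members, among them the synaptic vesicle chaperone Dnajc5 and the clathrin-uncoating auxilin Dnajc6.

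Promoter sequences are shown for members that stood far from control and for all but 1 of those with a full heat shock element. RefSeq promoter windows of assembly GRCm38.p6, running from 250 bases before to 50 bases after a transcript start, were present for 76 of the 92 genes. A triple element, GAANNTTCNNGAA or its reverse complement TTCNNGAANNTTC, was found in 198 of 32851 windows (0.603%). By gene, it was found for 0.662% of all genes with a window and for 5 of these 76 genes (6.58%): Chordc1, Hspe1, Hspd1, Hsph1 and Dnajb6. Hsph1 and Dnajb6 each had it in a further window from another start, which is not shown. Each triple element contains the double elements GAANNTTC (7.86% of all windows) and TTCNNGAA (8.52%), which read the same on both strands. In the windows below, all from 5′ to 3′ on the strand of the gene, capitals mark every double or triple element. The windows lie at chr9:18292017-18292316 on the plus strand (Chordc1), chr1:55087898-55088197 on the plus strand (Hspe1), chr5:149636266-149636565 on the minus strand (Hsph1), chr5:29735648-29735947 on the plus strand (Dnajb6) and chr5:135887669-135887968 on the plus strand (Hspb1).
Chordc1: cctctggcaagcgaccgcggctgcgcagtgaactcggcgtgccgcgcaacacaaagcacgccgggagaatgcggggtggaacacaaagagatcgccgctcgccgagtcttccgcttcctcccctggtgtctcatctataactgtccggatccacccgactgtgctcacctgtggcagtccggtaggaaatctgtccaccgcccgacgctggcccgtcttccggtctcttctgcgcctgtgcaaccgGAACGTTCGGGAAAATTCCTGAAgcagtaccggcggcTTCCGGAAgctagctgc
Hspe1: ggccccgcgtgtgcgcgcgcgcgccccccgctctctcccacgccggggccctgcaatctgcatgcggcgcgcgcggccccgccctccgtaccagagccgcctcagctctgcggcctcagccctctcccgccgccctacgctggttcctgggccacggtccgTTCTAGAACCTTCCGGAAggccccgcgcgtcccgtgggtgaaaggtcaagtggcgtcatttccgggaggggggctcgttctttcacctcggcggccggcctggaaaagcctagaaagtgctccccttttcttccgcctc
Hsph1: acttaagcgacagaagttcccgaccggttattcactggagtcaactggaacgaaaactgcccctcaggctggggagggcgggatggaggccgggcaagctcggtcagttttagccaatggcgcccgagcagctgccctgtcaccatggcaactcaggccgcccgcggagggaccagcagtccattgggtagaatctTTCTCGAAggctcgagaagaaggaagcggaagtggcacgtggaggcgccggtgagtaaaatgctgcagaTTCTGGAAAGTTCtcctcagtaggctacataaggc
Dnajb6: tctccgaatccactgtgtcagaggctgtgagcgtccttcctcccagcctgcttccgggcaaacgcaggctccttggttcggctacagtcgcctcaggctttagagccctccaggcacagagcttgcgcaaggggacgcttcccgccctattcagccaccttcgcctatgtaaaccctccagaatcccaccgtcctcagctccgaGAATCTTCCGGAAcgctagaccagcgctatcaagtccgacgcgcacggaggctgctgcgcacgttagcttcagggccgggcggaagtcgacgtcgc
Hspb1: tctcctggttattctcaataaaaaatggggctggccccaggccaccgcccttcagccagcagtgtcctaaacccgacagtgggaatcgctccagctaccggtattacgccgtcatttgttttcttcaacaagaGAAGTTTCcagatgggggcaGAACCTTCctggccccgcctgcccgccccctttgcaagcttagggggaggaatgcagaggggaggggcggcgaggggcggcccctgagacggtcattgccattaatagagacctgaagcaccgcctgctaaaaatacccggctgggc
The Chordc1 run of 23 bases crosses the start, from 4 bases before it to 19 after it, and holds consecutive alternating units. Hspe1 and Hspd1 are transcribed away from each other, and their windows share 285 bases on opposite strands. The same 18-base run, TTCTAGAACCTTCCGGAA in the sense of Hspe1, lies 89 to 72 bases before the Hspe1 start and 144 to 127 bases before the Hspd1 start. Hspb1 had a pair of separate double elements, GAAGTTTC at 117 to 110 and GAACCTTC at 97 to 90 bases before its start, and no triple element. Dnaja1 and Hspa1a likewise held a double element only. A match of letters describes the window and is no evidence of binding.

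Chordc1, Hspe1, Hspd1 and Hsph1 all lay below control in every tumour-bearing array. Chordc1, a co-chaperone that binds HSP90, had a control level of 9.06 log2, whereas the 0.5M, 1M and 2M arrays read 8.66, 7.87 and 8.74. The control was the highest of the 4 arrays and 1M stood apart as the lowest. The mean difference was -0.63 ± 0.48 log2 (SD over the 3 tumour-bearing arrays, here and below, which holds no uncertainty of the control), a 1.55-fold lower level, and without the 1M array it was -0.35. At 1M the level was 2.28-fold below control. The limma test across all genes, tumour-bearing against control, gave an adjusted p of 0.512. In bulk tissue, fewer cells of a type and less RNA per cell cannot be told apart.

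Hspe1 and Hspd1 encode HSP10 and HSP60, the lid and barrel of the folding chamber in mitochondria. Hspe1 had a control level of 10.43 log2, whereas the 0.5M, 1M and 2M arrays read 10.11, 9.61 and 9.84. All tumour-bearing arrays were below control, by 0.57 ± 0.25 log2 on average, and its 1.49-fold lower level had a limma adjusted p of 0.383. Hspd1 read 10.07 log2 in the control and 9.82, 9.73 and 9.68 in the order of cell number. Its mean difference was -0.33 ± 0.07 log2 (limma adjusted p = 0.375). Each gene had a second probe set, at mean differences of -0.49 for Hspe1 and -0.35 for Hspd1. Several chaperone genes have processed copies elsewhere in the genome, and which of their probe sets read the parent gene was not tested.

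Hsph1, the heat-inducible HSP110 that recharges HSP70 and helps to dissolve aggregates, read 10.08 log2 in the control and 9.75, 9.69 and 9.71 in the tumour-bearing arrays. The latter lay within a narrow band, -0.37 ± 0.03 log2 from control, and the limma adjusted p was 0.375. The other HSP110 genes were also on the low side in every array, Hspa4 at -0.15, -0.28 and -0.25 log2 and Hspa4l at -0.04, -0.20 and -0.16. Among genes outside the group, 83 measured genes had a triple element in a window, and their median difference was 0.02 log2, against 0.03 for the 15404 with a window and no triple element. Inside the group the medians were -0.37 log2 for the 5 genes with a triple element, which include Dnajb6 at 0.33, and -0.01 for the 71 with a window and none. The earlier results that led to the group already showed several of these genes low, so this is a description only.

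**Figure D1:**
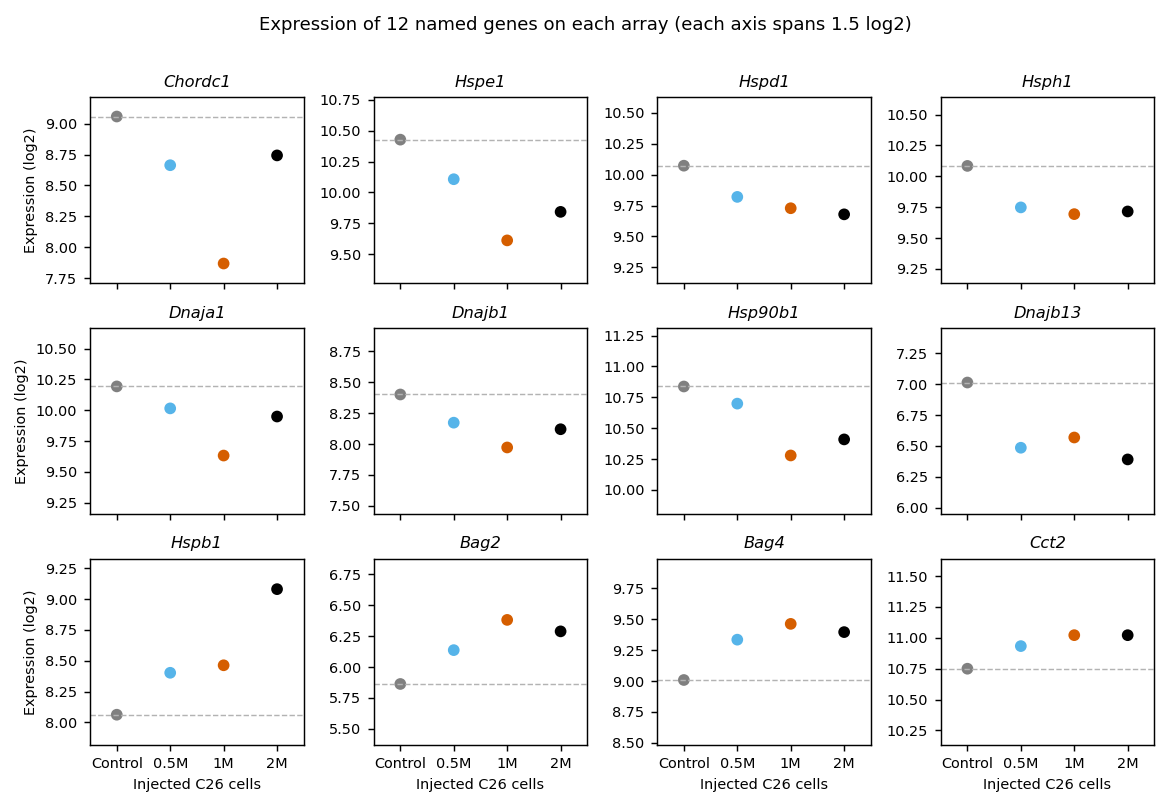
Log2 expression of 12 named genes on the control, 0.5M, 1M and 2M arrays, 1 point per array, with the control level as a dashed line and an axis span of 1.5 log2 in each panel. The upper 8 genes lie below the dashed line on every tumour-bearing array and the lower 4 above it. Chordc1 is lowest at 1M (7.87) and Hspb1 is highest at 2M (9.08).

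Over all 92 genes, 37 were below control in every tumour-bearing array and 26 above it, whereas 29 lay on both sides. The shares were 40.2% below and 28.3% above among the 92 genes, beside 22.5% below and 33.2% above among all 19938 genes. Among the 75 genes past the filter, 33 were below and 22 above, against 27.3% and 33.4% of genes past the filter. Of the 37, 24 (64.9%) were lowest at 1M, beside 39.9% of all genes that were below control in every array. Past the filter this held for 23 of 33 (69.7%), beside 46.7%. The 3 differences share the control array, so a single deviating control pool would move all of them.

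The shift of the whole group was small. For the 92 genes the 0.5M, 1M and 2M arrays had median differences of -0.04, -0.02 and -0.03 log2, beside -0.01, 0.07 and 0.03 for all genes. Past the filter the medians were -0.03, -0.09 and -0.03 log2, beside 0.01, 0.04 and 0.01. Single genes stood well outside these medians on both sides.

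**Figure D2:**
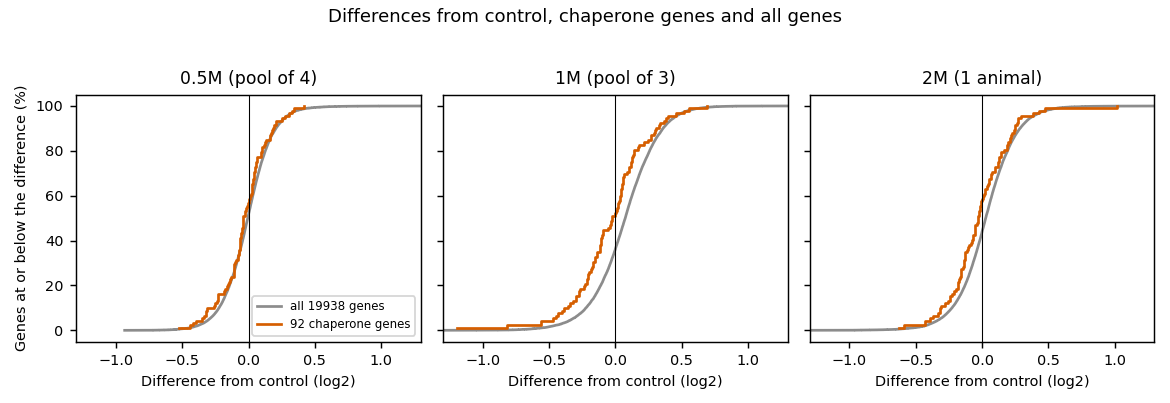
Share of genes (%) at or below each difference from control (log2), for the 92 chaperone genes and for all 19938 genes, in 1 panel per tumour-bearing array. The chaperone curve lies left of the other by the largest distance at 1M, where the medians are -0.02 and 0.07 log2.

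By size, few members stood at least 0.5 log2 from control, a 1.41-fold difference. Below control this held past the filter for 1 gene at 0.5M (Dnajb13), 4 at 1M (Chordc1, Hspe1, Hsp90b1 and Dnaja1) and 2 at 2M (Dnajb13 and Hspe1), where 0.293%, 2.14% and 1.25% of genes past the filter lay as low. Without Dnajb13, which passed the filter through its control level alone, 0, 4 and 1 genes remained. Above control it held for 0, 1 and 1 genes, namely Dnajc17 at 1M and Hspb1 at 2M, beside 0.56%, 1.63% and 1.24%. Bag2 and Hspb7, both under the filter, reached it at 1M. At 0.25 log2, 4, 10 and 7 members past the filter lay above control at the increasing cell numbers (5.81%, 14.9% and 9.14% of genes) and 7, 16 and 11 below it (5.21%, 10.8% and 9.03%).

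In limma, 0 of the 75 tested genes passed at an adjusted p of 0.05 for tumour-bearing against control arrays, where 0.0502% of genes passed. At an unadjusted p under 0.05 there were 6 lower genes (Dnajb13, Hsph1, Hspd1, Hspe1, Dnajb1 and Dnajc8) and 3 higher ones (Bag4, Dnajc25 and Cct2), beside 4.61% and 6.19% of all tested genes. Dnajb13 and Dnajc25 among these passed the filter only through the arrays where they were high. The limma trend with cell number likewise had 0 members at an adjusted p of 0.05 and 0% of all genes. At an unadjusted p under 0.05 it gave 6 lower members (Dnajb13, Dnajc2, Hspd1, Hsp90b1, Hspe1 and Dnajc8) and 2 higher ones (Hspb1 and Dnajc25), beside 3.18% and 3.34%, again with Dnajb13 and Dnajc25 among them. Both fits had 1 control array and 2 residual degrees of freedom.

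**Figure D3:**
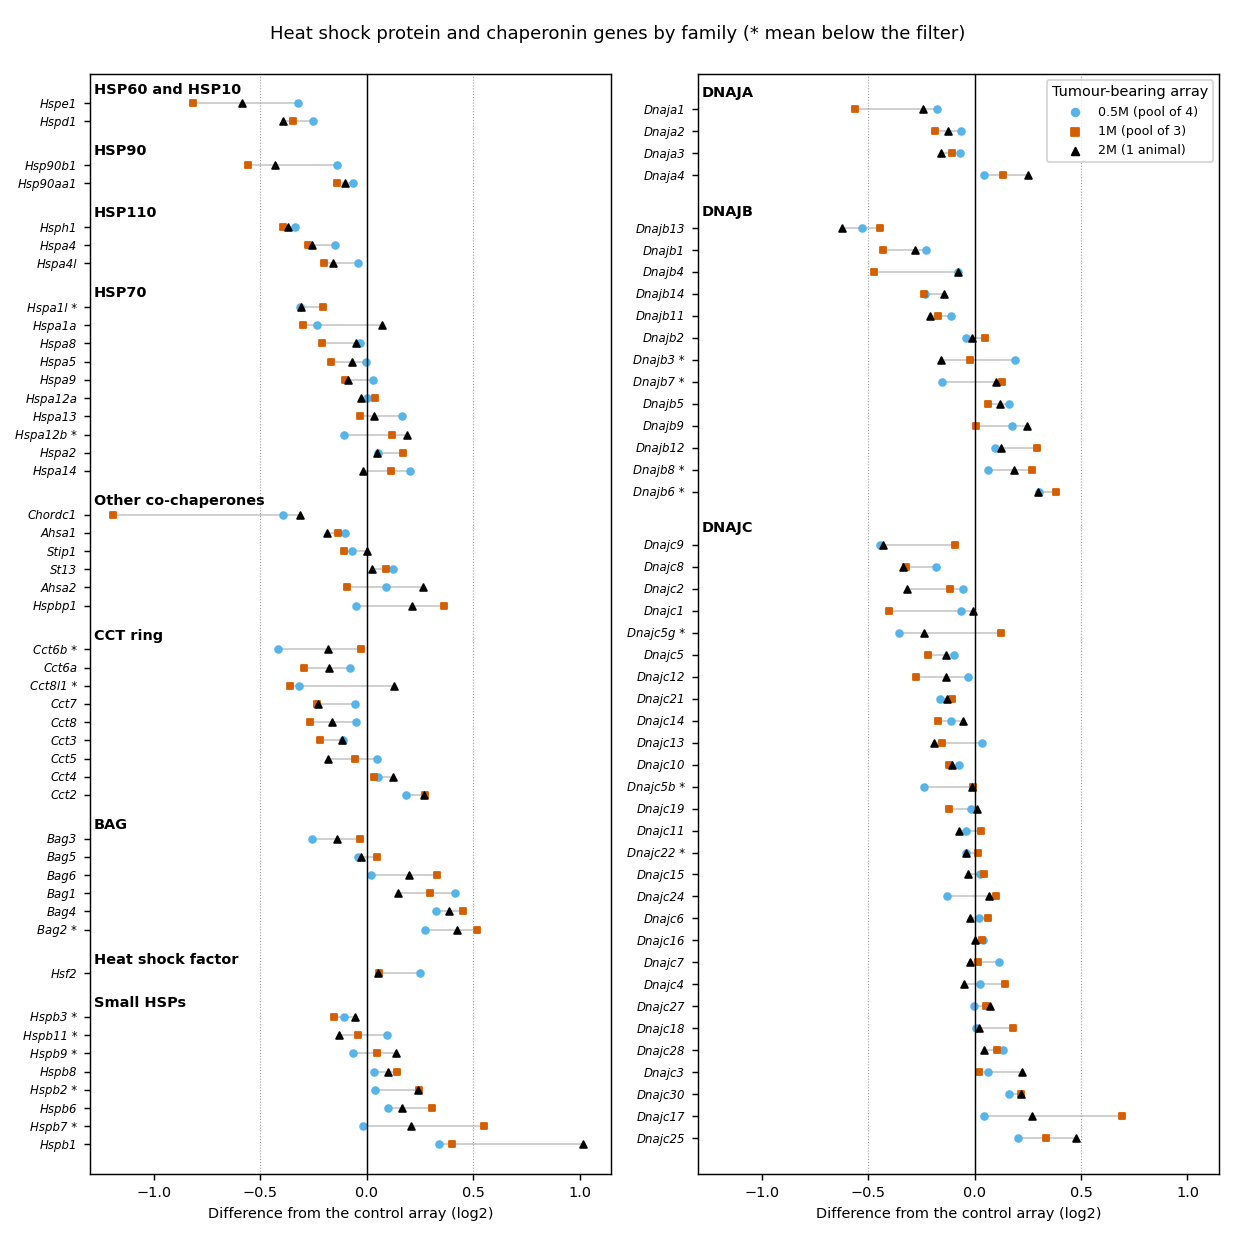
Difference of each tumour-bearing array from the control array (log2) for all 92 genes, grouped by family, with a circle for 0.5M, a square for 1M and a triangle for 2M, a grey line over their range and dotted lines at 0.5 log2 on either side. Chordc1 at 1M (-1.19) and Hspb1 at 2M (1.02) lie farthest out. Asterisks mark the 17 genes whose mean was under the filter.

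Both HSP90 genes lay below control in every tumour-bearing array. Hsp90b1, the HSP90 of the endoplasmic reticulum, read 10.84 log2 in the control and 10.70, 10.28 and 10.41 in the tumour-bearing arrays, -0.38 ± 0.21 from control (limma adjusted p = 0.468). Hsp90aa1, the inducible cytosolic form, differed by -0.06, -0.14 and -0.10 log2, and its 3 probe sets ranged from -0.16 to -0.06 in mean difference. The difference between these genes was not tested. Among HSP90 partners, Ahsa1, which stimulates its ATPase, differed by -0.10, -0.14 and -0.18 log2. Stip1, the adaptor that links HSP70 and HSP90, differed by -0.07, -0.11 and 0.00, and St13, an HSP70 co-chaperone, by 0.12, 0.09 and 0.02. Hspbp1, an exchange factor of HSP70, differed by -0.05, 0.36 and 0.21.

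On the probe sets that stood for them, HSP70 genes had a median of -0.02 log2 over 10 genes. Of the 10, 3 were below and 1 above control in every array, beside 22.5% and 33.2% of all genes. Hspa8, the constitutive HSP70 that is abundant in brain, had a control level of 13.05 log2 and read 13.03, 12.85 and 13.00 in the order of cell number, a mean difference of -0.10 and of -0.04 without the 1M array. Its other probe sets had mean differences of -0.12 and -0.55 log2. Those shared with Snord14c and Snord14d stood at -0.30, with -0.70 at 1M. The size of the Hspa8 difference thus depended on the probe set. Hspa1a, a stress-inducible HSP70, differed by -0.23, -0.30 and 0.07 log2. A probe set shared by Hspa1a and Hspa1b, which are nearly identical genes, differed by -0.24, 0.03 and 0.29. The control therefore lay inside the range of the tumour-bearing arrays on both probe sets. Hspa5, the HSP70 of the endoplasmic reticulum, differed by 0.00, -0.17 and -0.07 log2 and Hspa9, that of mitochondria, by 0.03, -0.10 and -0.09. Hspa1l, under the filter, stood at -0.27 ± 0.06 log2 and Hspa14, a ribosome-associated member, at 0.20, 0.12 and -0.02.

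Among J-domain proteins of the DNAJA class, 3 of 4 were below control in every array and 1 above, beside 22.5% and 33.2% of all genes. Dnaja1, a cytosolic partner of HSP70, had a control level of 10.19 log2 and read 10.02, 9.63 and 9.95 in the order of cell number. The mean difference was -0.33 ± 0.20 log2 (limma adjusted p = 0.492), with 1M lowest, and -0.21 without the 1M array. Its second probe set stood at -0.15 and a set shared with Mir207 at 0.04. Dnaja2 differed by -0.06, -0.19 and -0.12, and Dnaja4 by 0.04, 0.14 and 0.25 log2.

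The DNAJB class was split, with 5 of 13 genes below and 5 above control in every array, beside 22.5% and 33.2% of all genes. Dnajb1, the heat-inducible HSP40, read 8.40 log2 in the control and 8.17, 7.97 and 8.12 in the tumour-bearing arrays, -0.31 ± 0.10 log2 on average (limma adjusted p = 0.408). Dnajb4, a close relative of Dnajb1, stood at -0.47 log2 at 1M and -0.08 at both other cell numbers. Dnajb13, a J-protein of the axoneme of cilia and flagella, read 7.01 log2 in the control and 6.49, 6.57 and 6.39, -0.53 ± 0.09 from control. Only the control array lay above the filter limit, so its unadjusted limma p under 0.05 in both fits is no support for a difference. Of markers of ciliated ependyma and tanycytes, 10 genes were measured and 7 were past the filter. The medians of the 10 were 0.05, 0.16 and -0.03 log2 at the 3 cell numbers. In every array 3 were above and 0 below control, beside 33.2% and 22.5% of all genes. Foxj1, the regulator of motile cilia, differed by -0.12, 0.09 and 0.14. The 3 above control in every array were Dynlrb2 (0.39, 0.63 and 0.46 log2), Ccdc153 (0.29, 0.42 and 0.33) and Rsph1 (0.02, 0.14 and 0.001). Dynlrb2 and Rsph1 were under the filter, and Ccdc153, at 6.58 log2 in the control, passed it only through the tumour-bearing arrays.

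Dnajb6, which suppresses aggregation of polyglutamine proteins, gave opposite signs on different probe sets. Its only probe set with 1 symbol, under the filter, read 5.93 log2 in the control and 6.23, 6.31 and 6.23 in the tumour-bearing arrays, 0.33 ± 0.05 above control. The 4 probe sets annotated to both Dnajb6 and Gm4247 stood at mean differences of -0.43 to -0.37 log2, each lowest at 1M. The direction for Dnajb6 is therefore unsettled in these arrays. For Dnajb14 the probe set of its own and the 2 shared with Pin4 were all below control, at -0.21, -0.43 and -0.32 log2.

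**Figure D4:**
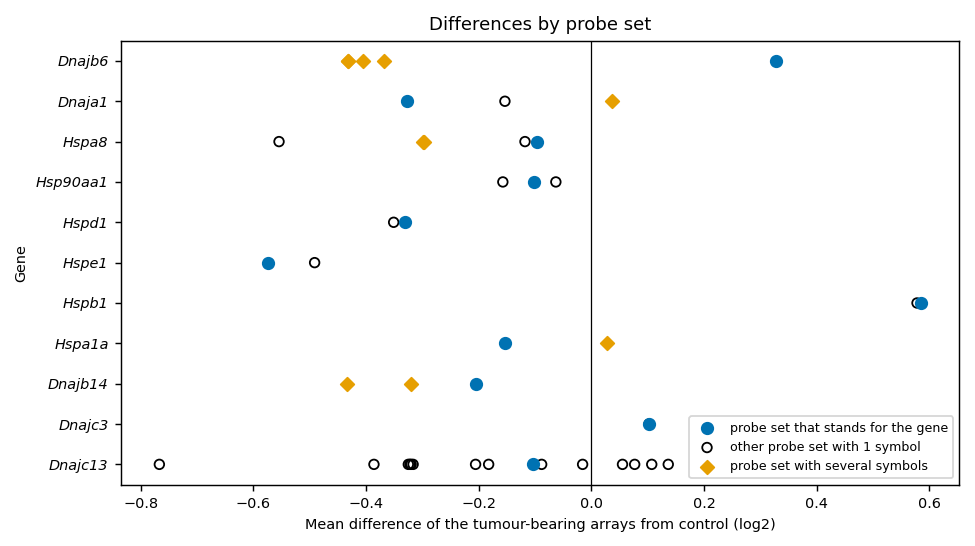
Mean difference of the 3 tumour-bearing arrays from control (log2) for every probe set of 11 genes that have more than 1, with the probe set that stands for the gene as a filled circle, other probe sets with 1 symbol as open circles and probe sets with several symbols as diamonds. Both probe sets of Hspb1 lie near 0.58, and those of Dnajb6 fall on opposite sides of 0.

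The DNAJC class, the largest with 28 genes, had a median of -0.02 log2. Of the 28, 10 were below and 7 above control in every array, beside 22.5% and 33.2% of all genes. Dnajc8, a spliceosome-associated protein, read 7.87 log2 in the control and 7.69, 7.55 and 7.54, -0.28 ± 0.08 on average (limma adjusted p = 0.424). Dnajc9, a histone chaperone, stood at -0.44, -0.09 and -0.43 log2, so that 1M was nearest to control. Dnajc17 was 0.05, 0.69 and 0.27 log2 above control, mostly at 1M, and Dnajc25 0.21, 0.33 and 0.48, in the order of cell number. Among the neuronal members, Dnajc5 lay below control in every array, at -0.10, -0.22 and -0.13 log2. Dnajc6 was close to control, at 0.02, 0.06 and -0.02. Of the members of the endoplasmic reticulum, Dnajc3, an inhibitor of the kinase Perk, differed by 0.06, 0.02 and 0.22, and Dnajb9, a regulator of Ire1 signalling, by 0.18, 0.01 and 0.25, whereas Dnajb11 stood at -0.11, -0.17 and -0.21. Dnajc13 had 15 probe sets, 11 below and 4 above control, from -0.77 to 0.14 log2.

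The CCT ring, which folds actin and tubulin, had subunits on both sides of control. Of 9 genes, 5 were below and 2 above in every array, beside 22.5% and 33.2% of all genes. Cct6a, Cct7, Cct8 and Cct3 stood at -0.18, -0.17, -0.16 and -0.15 log2 on average. Cct2 read 10.75 log2 in the control and 10.93, 11.02 and 11.02 in the tumour-bearing arrays, 0.24 ± 0.05 higher (limma adjusted p = 0.442). Tcp1, the further subunit of the ring that lies outside the group by its symbol, differed by 0.07, -0.36 and -0.15. Under the filter, Cct6b stood at -0.42, -0.02 and -0.18 log2 and Cct8l1 at -0.32, -0.36 and 0.13.

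BAG genes, which encode HSP70 exchange factors, lay mostly above control, with a median of 0.23 log2. Of the 6, 4 were above and 1 below control in every array, beside 33.2% and 22.5% of all genes. Bag4, known to silence death receptor signalling, read 9.01 log2 in the control and 9.34, 9.46 and 9.40, 0.39 ± 0.06 higher (limma adjusted p = 0.375). Bag2, an inhibitor of the ubiquitin ligase Stub1, was under the filter at 5.86 log2 in the control and 6.14, 6.38 and 6.29. Bag1 differed by 0.41, 0.30 and 0.15 log2, a difference that shrank as the cell number rose, and Bag6 by 0.02, 0.33 and 0.20. Bag3, the heat-inducible member that directs clients to autophagy, was the 1 below control, by 0.26, 0.03 and 0.14 log2. The remaining BAG gene, Bag5, lay within 0.05 log2 of control on each array.

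Small heat shock proteins hold unfolding proteins without using ATP, and Hspb1 (HSP27) stood out among them. It read 8.06 log2 in the control, 8.40 at 0.5M, 8.46 at 1M and 9.08 at 2M. All tumour-bearing arrays were above control, and the single animal of 2M was 2.02-fold above it, the 17th highest difference of 11963 genes at that cell number. The mean difference was 0.59 ± 0.37 log2 (limma adjusted p = 0.469), and 0.37 without the 2M array. In the trend Hspb1 was 0.49 ± 0.07 log2 higher per 1000000 cells (SE), with an unadjusted limma p of 0.00012 and an adjusted p of 0.18. Without the 0.5M or the 1M array the trend passed, at limma adjusted p of 0.00655 and 0.00469 with 1 residual degree of freedom, and without the 2M array it had 0.203. The fits without 0.5M and without 1M called 38 and 58 of all tested genes, where the fit on all arrays called 0. A second Hspb1 probe set read 7.91 log2 in the control and 8.25, 8.32 and 8.90, the same order.

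The other small heat shock proteins lay nearer to control on average. Hspb6 was 0.10, 0.31 and 0.16 log2 above control and Hspb8, the partner of Bag3, 0.04, 0.14 and 0.10. Hspb7, under the filter, differed by -0.01, 0.55 and 0.21. Over all 8 genes 4 were above and 1 below control in every array, beside 33.2% and 22.5% of all genes. The 8 had a median of 0.13 log2, with 3 genes past the filter. Cryab, a small heat shock protein outside the group by its symbol, differed by -0.15, 0.16 and -0.36 log2. Hsf2, the 1 heat shock factor measured in the group, differed by 0.25, 0.06 and 0.06.

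Partners of these chaperones outside the group lay on both sides of control, and 0 of their measured genes passed limma in either fit. Of all genes, 33.2% lay above and 22.5% below control in every array, and the counts of each list here stand beside these shares. Among 18 measured HSP90 co-chaperones, 5 were above and 4 below control in every array, with a median of -0.02 log2. Ptges3, the p23 protein that stabilises HSP90 clients, stood at -0.26 ± 0.16 log2, Ppid, a peptidyl-prolyl isomerase of the HSP90 complex, at -0.28 ± 0.12, and Fkbp8 at 0.24 ± 0.08. Of 12 prefoldin and CCT helper genes 2 were above and 4 below. The prefoldin subunit Vbp1 stood at -0.13, -0.84 and -0.35 log2 and Pfdn5 at 0.23, 0.39 and 0.34. Chaperones and proteases of mitochondria had a median of -0.01 log2 over 13 genes, with the HSP70 exchange factor Grpel1 at 0.28 ± 0.02. In the endoplasmic reticulum 8 of 15 genes were above and 4 below control in every array, with Xbp1 at 0.29 ± 0.10. The lectin chaperone Canx stood at -0.08, -0.45 and -0.11 log2 and the disulphide isomerase Pdia3 at -0.03, -0.59 and -0.18. A list of 10 HSP70 exchange and disaggregation genes, Hspbp1 among them, had 6 above and 2 below, with Sgta at 0.28 ± 0.10. The 6 include Ahsg, which is no HSP70 exchange factor and was under the filter, at 0.20, 0.28 and 0.006 log2.

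The arrays correlated at 0.984 to 0.994 over all probe sets. Markers of neurons and astrocytes had medians within 0.08 log2 of control on each array, and those of endothelium within 0.07. Oligodendrocyte markers had medians of -0.17, 0.08 and -0.43 log2 and microglial markers -0.08, 0.00 and -0.25. The medians were 0.15, 0.32 and 0.25 for blood markers, -0.07, -0.09 and -0.03 for choroid plexus and -0.09, 0.27 and 0.13 for muscle. In these last lists only 3 of 7 blood, 5 of 9 choroid plexus and 1 of 10 muscle markers were past the filter. Meningeal markers lay below control in every array for 8 of 10 genes, beside 22.5% of all genes. Their medians were -0.20, -0.40 and -0.11, lowest at 1M, as were most of the chaperone genes below control. Pituitary markers lay above control in every array for 7 of 9, beside 33.2%, with Gh 4.68 log2 above control at 0.5M. The part of tissue composition in the chaperone differences was not tested.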

How the data were processed

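Hypothalamic RNA was profiled on 4 arrays, from whole-transcript cDNA of 100 ng of RNA with an integrity number above 8, per the labels' protocols. The authors deposited log2 values made with RMA, per the submitters' processing notes, which corrects background, aligns quantiles between arrays (removing any change common to all transcripts) and summarises probe sets. RMA's version, and which arrays were processed together, were not stated. Values covered 35556 probe sets, 0 missing values and 0 columns without a sample, with array medians of 6.72 to 6.77 log2. Probe sets with 1 symbol in the platform annotation (21789) were used, and 1621 with several symbols only where named. All 92 members matched RefSeq by Entrez number, with 0 symbols changed. The build behind the probe sets is not given in the sources used here, so coordinates are those of the RefSeq windows only.

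Differences from the control array are differences of log2 values. Two-sided limma tests (version 3.58.1, R 4.3.3, lmFit and eBayes, Benjamini-Hochberg over 11963 genes, threshold 0.05) compared the 3 tumour-bearing arrays with the control and fitted a slope on cell number with control at 0, where the single animal of 2M weighs most. The lone control was assumed to vary like the other arrays. In the comparison, p-values rest on the spread between tumour-bearing arrays of different cell numbers and numbers of animals. In the slope fit, they rest on departures of the arrays from a straight line. The limma script was tested on simulated data. Other values came from Python 3.11.15 with pandas 2.3.3 and numpy 2.4.6, and figures from matplotlib 3.10.9. The members and lists were chosen with earlier results of these data known. Named were members that passed a test, had an unadjusted p under 0.05 with a mean difference of at least 0.2 log2, stood 0.5 log2 from control on an array, were among the 3 with the largest mean difference of their family or belonged to a fixed set of inducible and constitutive chaperones, and up to 4 genes with the largest mean difference per list. Further members were named after their values were seen to complete a family. Alternatives were no filter, a 60th percentile filter, cyclic loess, median centring, averaged probe sets, a variance trend, a slope on log2 cell number and leaving out each tumour-bearing array. The number of arrays limits the precision.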

Additional observations from a re-analysis of the deposited data

How the results depend on the processing

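In the tumour comparison, the 31 tested members that the naming rule picked kept their sign and stayed above a limma adjusted p of 0.05 in all 274 values under the alternatives. Members named beyond the rule were not refitted one by one. The limma count of 0 in the tumour comparison was 0 under each alternative. The trend count ranged from 0 to 1 when a tumour-bearing array was left out, the 1 being Hspb1 (0.51 log2 per 1000000 cells without 0.5M and 0.50 without 1M, where 38 and 58 of all tested genes were called), and was 0 otherwise. At 0.25 log2 (a 1.19-fold difference) in place of 0.5, 4, 10 and 7 members lay above control at 0.5M, 1M and 2M and 7, 16 and 11 below. Without the filter 3 lay above at 1M. With the 60th percentile filter 0 lay below at 0.5M and 1 at 2M, since Dnajb13 was no longer counted. The median of members past the filter, -0.05 log2, ranged from -0.05 to -0.03, and the counts below and above control in every array ran from 28 to 37 and 19 to 28, over alternatives chosen after seeing the data. No paired analysis was possible because each group is 1 array.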

Other observations

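A list of stress-induced genes (heat, cold, metals or oxidants), further heat shock factors and a factor-binding protein had 17 measured genes, 14 of them tested. In limma 0 passed over all genes and 4 were higher at an unadjusted p under 0.05, beside 6.19% of all tested genes. Rbm3, the cold-inducible RNA-binding protein, was 0.43, 0.35 and 0.65 log2 above control, while Cirbp, its relative, differed by -0.08, -0.003 and -0.14. Hmox1, haem oxygenase 1, was 0.44, 0.51 and 0.26 log2 above control and the metallothionein gene Mt1 0.19, 0.24 and 0.22. Hmox1, among the 4, read 6.37 log2 in the control, under the filter limit, and 6.80, 6.87 and 6.62 in the tumour-bearing arrays. It passed the filter only through the latter, so its unadjusted limma p under 0.05 is no support for a difference. Hsbp1, a small protein that binds heat shock factor, was 0.34, 0.32 and 0.35 log2 above control, the narrowest spread among these genes (limma adjusted p = 0.375). In all, 10 of the 17 were above and 3 below control in every array, beside 33.2% and 22.5% of all genes, and the 3 were Cacybp, Fkbp4 and Cirbp.

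Fkbp5, a co-chaperone that lowers the hormone affinity of the HSP90-bound glucocorticoid receptor, was 0.21, 0.37 and 0.53 log2 above control, in the order of cell number (limma adjusted p = 0.429). Its paralogue Fkbp4 differed by -0.10, -0.13 and -0.10. Of 13 measured glucocorticoid-responsive genes 12 were above control in every array, beside 33.2% of all genes, with medians of 0.33, 0.46 and 0.53 log2. In limma 0 of them passed over all genes and 9 were higher at an unadjusted p under 0.05, beside 6.19%. Of 16 immediate early genes 0 were above and 6 below, beside 33.2% and 22.5%.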
